A study of Mus musculus with 16 samples.

Results

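A gene can keep its total signal while a single one of its exons changes. Such a pattern was sought in glomeruli, the tufts of capillaries where the kidney filters blood. Between wild-type embryos and embryos with a mutation in the +KTS form of Wt1, 331 exon probe sets differed while their gene's median difference was small. They were taken from an exon-level table of 375483 probe sets, which are groups of probes that each read a short stretch of a gene. Other probe sets of these genes often moved the same way, and no probe set was placed in an exon. Changes of single exons are therefore not shown. The members were chosen by their measured values. A probe set had to carry exactly 1 gene symbol and have a mean log2 signal of 6.8 or more over the 8 arrays, and its gene had to have 5 or more such probe sets. That left 123033 probe sets of 8611 genes. The gene then had to have a median probe set difference, Frasier minus wild type, within 0.3 of 0, which 6386 genes with 95843 probe sets did; they are called genes of steady median below. From these, a probe set was kept if its own difference was 1 or more in size (2-fold) and if the 4 wild-type and 4 Frasier values did not overlap. Because this comparison chose the members, their differences are a description, and no test of them is given.

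The samples were glomeruli of E18.5 embryos, collected with magnetic beads after perfusion, and their RNA was measured on exon arrays. Of the 8 arrays, 4 held RNA of wild-type embryos and 4 RNA of wt1(+KTS) mutants, which the sample titles call Frasier. All embryos shared a mixed background of C57Bl6 and DBA2. Each of the 8 arrays was deposited as an exon-level and as a gene-level sample (16 in all), which leaves n = 4 in a genotype. The labels give no zygosity, litter or sex, and no agent was given to the animals. A letter that ends each sample code has no stated meaning and never occurs in both genotypes, so differences between the genotypes cannot be told apart from whatever it marks.

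WT1 is a zinc finger protein of podocytes, the epithelial cells of the filter, and exists in forms that differ by the 3 amino acids KTS between its last zinc fingers. The +KTS form is known to bind RNA and to lie near splicing factors, whereas the form lacking KTS acts mainly as a transcription factor. In Frasier syndrome the +KTS form is reduced. Exon arrays carry probe sets along the whole gene, so they can register a skipped exon, another start or another end that a gene average conceals. Here the annotation of the probe sets gives their gene but not their exon, and probe sequences were not used here, so no exon number is stated.

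The arrays of a genotype correlated at 0.946 to 0.977 (wild type) and 0.973 to 0.983 (Frasier) over the exon-level table, and no 2 were identical. Wild-type replicate 4 had the lowest correlations to the other arrays, 0.937 to 0.963. Of the podocyte markers, 4 of 6 were measured at the gene level (Nphs1, Podxl, Ptpro and Synpo), and all 4 were lower in Frasier, with a mean of 8.04 to 8.36 on the Frasier arrays and 8.74 to 9.01 on the wild-type arrays. All 5 endothelial markers (9.45 to 9.68 in the wild type, 8.98 to 9.08 in Frasier), all 3 mesangial (9.30 to 9.43, 8.92 to 9.13), all 4 of proximal tubule (9.96 to 10.3, 9.45 to 9.85) and all 3 of loop and distal tubule (10.1 to 10.2, 9.61 to 9.98) were lower in Frasier as well. The 3 nephron progenitor markers, 2 of them higher in Frasier, had a mean of 7.44 to 7.67 in the wild type and 8.09 to 8.34 in Frasier. Fewer cells of a type and less RNA per cell cannot be told apart in such samples, and the part of these markers in the differences below was not tested.

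The members were mostly higher in Frasier. Of the 331 members (0.345% of 95843 probe sets), 286 were higher (0.298%) and 45 were lower (0.047%). These shares are the background of the rule itself, so nothing is read from them. Over all 375483 probe sets, whatever their gene did, 0.86% were higher and 0.66% lower by the same size without overlap, and limma called 2.67% in either direction. They lay in 300 genes, 4.7% of the 6386. A single member was found in 276 genes, 2 in 17 genes and 3 in 7 genes. The higher members had a median difference of 1.14, reaching 2.49, and 29 of them differed by 1.5 or more. The lower members had a median of −1.13 and reached −3.70, and 4 of them differed by 1.5 or more. Just inside the threshold lay probe sets of Col23a1, Vps33b and Hnrnpll, with differences of 1.0008, 1.0019 and 1.0020. Just outside it lay those of Wdr43, Brpf1 and 2700049A03Rik at 0.99999, 0.9992 and 0.9986. A further 248 probe sets passed on size but overlapped between the genotypes, 206 of them higher and 42 lower. Among genes with a median further from 0, the same size and separation were met by 7.45% of probe sets.

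**Figure D1:**
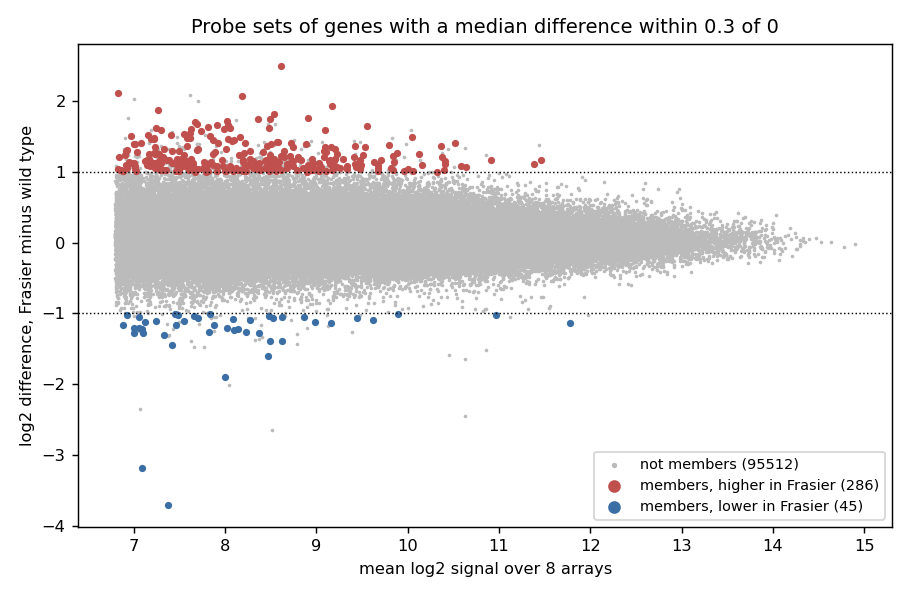
Log2 difference between Frasier and wild type against the mean log2 signal over 8 arrays, for each of the 95843 probe sets of genes whose median difference is within 0.3 of 0. Red points are the 286 higher members, blue points the 45 lower ones, grey points all others; the dotted lines mark a difference of 1 in size, and grey points beyond them overlap between the genotypes.

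Wild-type replicate 4 moved with the higher members. It was the lowest wild-type array in 208 of the 286 higher members (72.7%), against 46.0% of all probe sets of genes of steady median, and Frasier replicate 4 was the lowest Frasier array in 149. Relative to its own mean over the 8 arrays, the median higher member stood at −1.22 on wild-type replicate 4 and at −0.38, −0.62 and −0.07 on wild-type replicates 1, 2 and 3. The standard deviation of the wild type had a median of 0.594 in the higher members, and that of Frasier 0.230. Lower members had the opposite spread, with medians of 0.248 and 0.391, and wild-type replicate 4 was lowest in 13 of 45. A gap of 1 or more between neighbouring wild-type values was found in 85 higher members and 0 lower members.

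With wild-type replicate 4 left out, the rule found 272 probe sets. Of these 180 were higher, 92 lower, and 142 belonged to the 331. These 142 comprised 106 of the 286 higher and 36 of the 45 lower members. Leaving out wild-type replicate 1 gave 509, leaving out wild-type replicate 3 gave 818 and leaving out Frasier replicate 4 gave 539. The lower share became 33.8% when wild-type replicate 4 was dropped, 7.09% when wild-type replicate 3 was and 21.2% when Frasier replicate 2 was. With each gene's median subtracted on each array, 206 probe sets met the rule and 122 of them belonged to the 331; 65 of the 206 were lower (31.6%, against 13.6% as chosen). Whichever array was left out, 83 members of 79 genes were found each time, 64 higher and 19 lower.

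**Figure D2:**
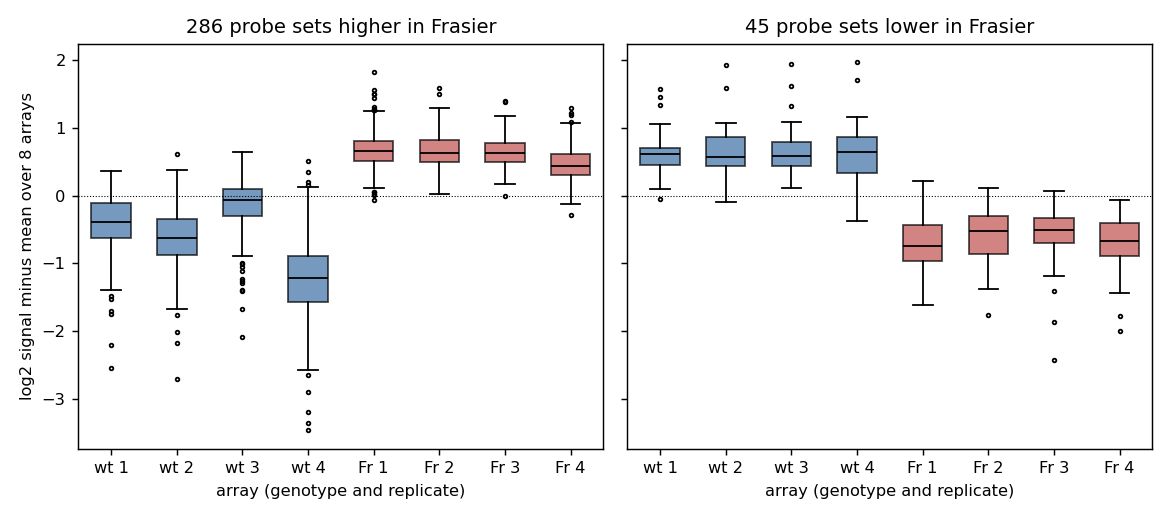
Log2 signal minus the mean over the 8 arrays, per array (wt, wild type; Fr, Frasier; replicates 1 to 4), for the 286 higher members on the left and the 45 lower members on the right. Boxes span the quartiles with the median as a line, whiskers reach 1.5 times that span and circles lie beyond it; wild-type replicate 4 has the lowest box on the left and does not stand apart on the right.

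Among the lower members Tcp11l1 stood first. Its probe set 5193872 read 8.95, 9.29, 9.31 and 9.33 on the wild-type arrays and 5.76, 6.00, 4.94 and 5.38 on the Frasier arrays. Probe set 4359238 of the same gene read 8.53, 8.68, 8.71 and 8.79 in the wild type and 5.77, 5.33, 5.23 and 5.66 in Frasier. All Frasier values lay between 4.94 and 6.00, beside a 10th percentile of 5.35 over the whole table, and the genotypes were 2.95 and 2.76 apart at their nearest. The differences were −3.70 ± 0.25 and −3.18 ± 0.14 (SE, n = 4 per genotype), the 2 differences of 3 or more in size among the 331. The remaining Tcp11l1 member, probe set 4729759, went the other way, from 8.59, 8.44, 8.89 and 8.51 in the wild type to 9.81, 9.70, 9.43 and 9.51 in Frasier, a difference of 1.00 ± 0.13 (SE). Its other 8 probe sets bright enough to count differed by −0.71 to 0.63. Another 4 were too dim to count, and 1 of them differed by 1 or more in size without overlap. Among the Tcp11l1 probe sets that counted, 2 thus lay near the floor in Frasier and 1 was higher, and the gene median was −0.04.

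Sacm1l held the next largest lower member. Sacm1l, a phosphoinositide phosphatase of the endoplasmic reticulum and Golgi, read 8.92, 8.86, 9.09 and 8.93 in the wild type and 7.26, 7.43, 6.59 and 6.93 in Frasier, a difference of −1.90 ± 0.19 (SE). Its genotypes were 1.43 apart, and the median of its 20 probe sets bright enough to count was 0.06. Of 3 dimmer probe sets of the gene, 1 differed by 1 or more in size without overlap. Another 3 genes handle inositol trisphosphate, a messenger that releases calcium. In Itpkb, a kinase that phosphorylates it, 2 probe sets differed by −1.45 ± 0.30 and −1.17, and the gene median of −0.28 was near its limit. Both met the rule in 3 of 8 repeats with an array left out, and neither under both rescalings, the repeated quantile normalization and the subtraction of the gene median. Itpr2, a receptor channel opened by it, differed by −1.28 ± 0.28 at 1 of 55 probe sets. Mrvi1, which couples that receptor to cGMP-dependent kinase, differed by −1.27 ± 0.27 at 1 of 14. These genes were brought together after their values were seen. Rcan1, an inhibitor of the phosphatase calcineurin, had a difference of −1.26 ± 0.23.

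In Egln3, a prolyl hydroxylase that marks hypoxia-inducible factors for decay, a probe set read 9.67, 9.47, 9.39 and 8.74 in the wild type and 7.60, 8.52, 8.06 and 7.52 in Frasier. That difference was −1.39 ± 0.31, and a second member of the gene differed by −1.02. The median of its 17 probe sets was 0.06. In Nr2f2, a nuclear receptor of vessels and mesenchyme, the values were 7.85, 8.32, 7.73 and 8.05 against 6.48, 7.04, 6.64 and 6.58, and the genotypes were 0.70 apart. Rftn1, a protein of lipid rafts, differed by −1.38 ± 0.29, but only 5 of its probe sets were bright enough to count.

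Sorbs3 encodes vinexin, an adaptor of focal adhesions, and had 3 lower members. The largest read 7.79, 7.22, 8.08 and 7.49 in the wild type and 6.21, 5.85, 6.60 and 6.82 in Frasier, and the 3 differed by −1.28 ± 0.28, −1.12 ± 0.25 and −1.07 ± 0.26 (SE). The brightest Sorbs3 probe sets, near 11.7, were not among them. The median of the 18 Sorbs3 probe sets was −0.15, 14 of them were below 0, and the gene-level difference was −0.40. In Eps8, which caps and bundles actin filaments, the values were 8.43, 8.27, 8.62 and 8.48 against 8.04, 7.06, 6.64 and 7.03. Frasier replicate 1 lay close to the wild type there, 0.24 below its lowest array.

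The higher members were led by Mfsd14b, of the major facilitator family of transporters. It read 6.93, 7.00, 7.22 and 8.34 in the wild type and 10.44, 9.90, 9.64 and 9.48 in Frasier, a difference of 2.49 ± 0.39 (SE), or 5.63-fold. Wild-type replicate 4 was the highest wild-type array here, unlike in most higher members, and the genotypes were still 1.14 apart. Ecpas, a scaffold that binds the proteasome, read 6.49, 5.92, 5.81 and 4.86 against 8.38, 7.67, 7.36 and 8.11, a difference of 2.11 ± 0.41. Its mean of 6.83 was just above the minimum of 6.8, and it met the rule in 4 of 8 repeats with an array left out. This was 1 of 2 members among the 56 probe sets of that gene; the other differed by 1.27.

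The genotypes were 1 or more apart at their nearest in 4 higher members. All 4 were found whichever array was left out. Such a gap keeps the size and separation with any array dropped, so nothing is read from that. Beside Mfsd14b and Col15a1, described with the matrix genes, these were Pou2f1 and Jarid2, named here after their values were seen. Pou2f1, the transcription factor Oct1, read 8.94, 8.79, 8.17 and 9.03 in the wild type and 10.61, 10.55, 10.20 and 10.16 in Frasier, a difference of 1.64 ± 0.23 (SE). Jarid2, an accessory subunit of the Polycomb complex PRC2, read 6.36, 6.35, 6.73 and 6.60 against 8.54, 8.16, 7.84 and 7.86, a difference of 1.59 ± 0.19. Wild-type replicate 4 was not the lowest array in either.

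Several of the largest higher members rested on wide wild-type spread. In Esyt2, a tether between endoplasmic reticulum and plasma membrane, the wild type read 7.15, 7.91, 8.82 and 4.73 and Frasier 9.42, 9.69, 8.94 and 8.83. The difference was 2.07 ± 0.90 with all arrays and 1.26 without wild-type replicate 4, and the genotypes were 0.01 apart. In Fam204a the wild type read 7.82, 8.91, 8.16 and 5.64 and Frasier 9.61, 9.55, 9.37 and 9.24, so the difference of 1.81 came to 1.15 without that array. In Ankrd50, an endosomal recycling protein, wild-type replicates 1 and 3 read 5.96 and 6.41 while replicates 2 and 4 read 9.10 and 9.001, and Frasier read 9.13, 9.63, 9.31 and 9.39. Replicates 2 and 4 thus sat just below the Frasier range, and the difference of 1.75 ± 0.84 (SE) rested on replicates 1 and 3.

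The remaining genes of the 12 largest higher differences had values between 1.67 and 1.87. They were 4933427D14Rik, Mettl14, a subunit of the methyltransferase that places N6-methyladenosine on RNA, Rabgap1, which inactivates Rab proteins, Bcl2l13, a mitochondrial protein of the Bcl2 family, Pafah1b1, a regulator of dynein also called Lis1, and Spcs3, a subunit of signal peptidase. Without wild-type replicate 4 the difference of Mettl14 moved from 1.75 to 1.31, that of Rabgap1 from 1.75 to 1.20 and that of Pafah1b1 from 1.70 to 1.69. Pafah1b1 had a second member, at 1.08. The Spcs3 member met the rule in 4 of 8 repeats with an array left out.

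**Figure D3:**
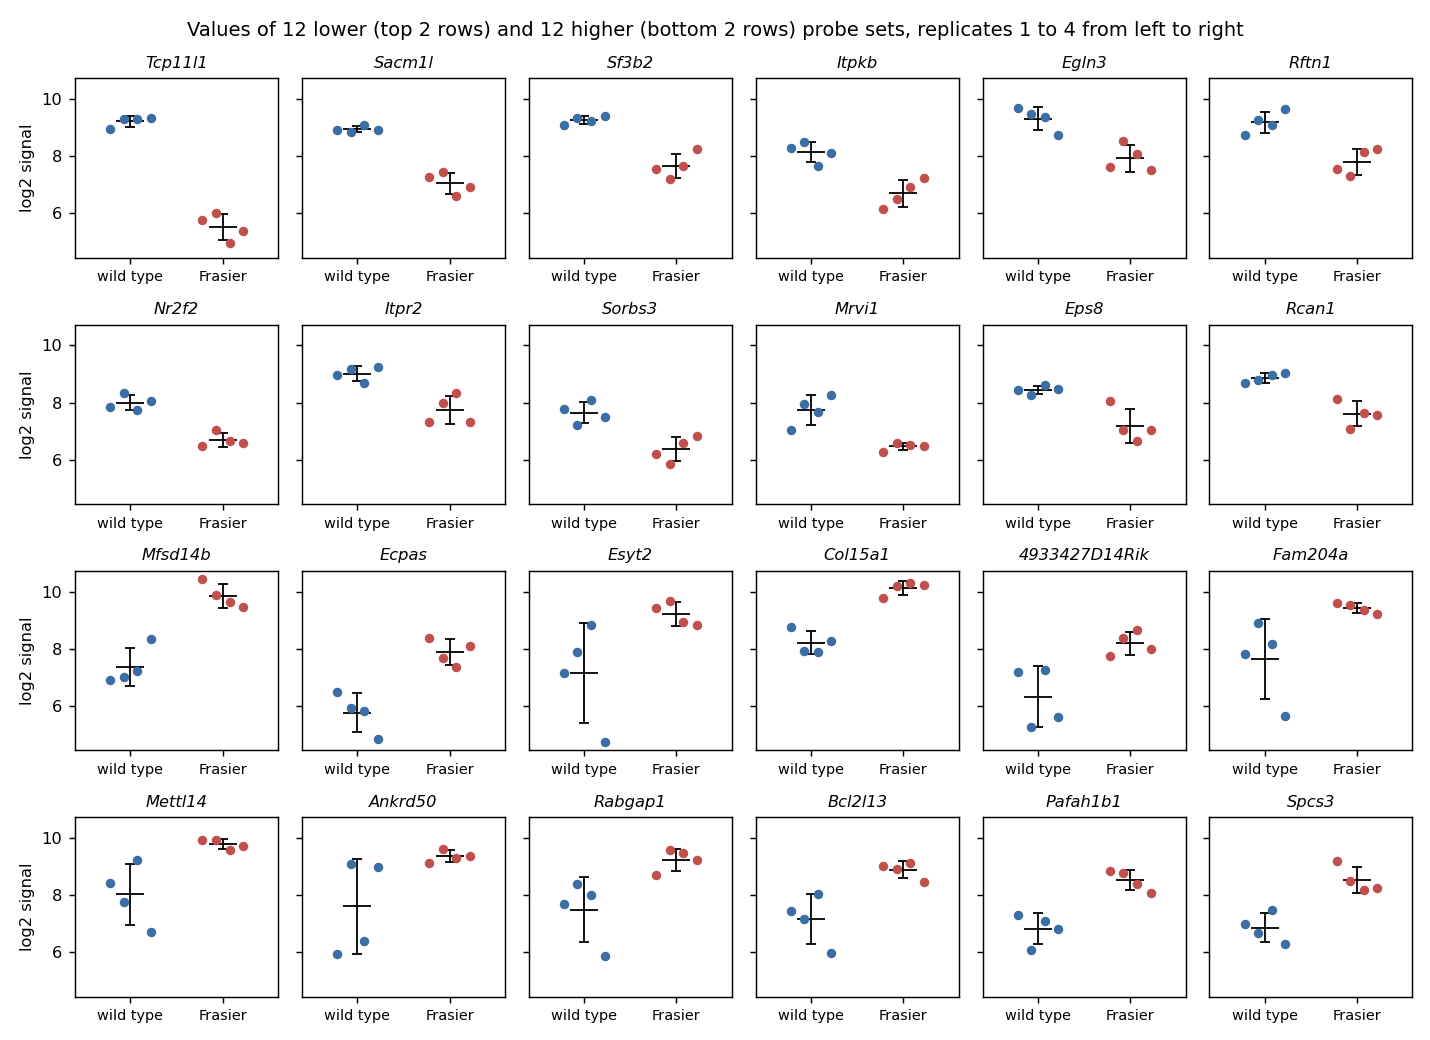
Log2 signal of the 12 largest lower members (top 2 rows) and the 12 largest higher members (bottom 2 rows), at most 1 per gene, with replicates 1 to 4 from left to right in each genotype. Bars give the mean and SD (n = 4); the 2 groups do not overlap in any panel, by the rule, and the wild type is spread most widely in Esyt2, Ankrd50 and Fam204a.

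Members in both directions occurred in 2 genes, Tcp11l1 and Slc4a4. With an array left out, the higher Tcp11l1 member met the rule in 3 of 8 repeats. The higher Slc4a4 member did so in 6 and the lower one in 5. Neither the higher Tcp11l1 member nor the lower Slc4a4 member met the rule under both rescalings. Slc4a4 encodes a sodium bicarbonate cotransporter of the proximal tubule and other epithelia and is known to be transcribed from separate starts that give proteins with different amino ends. Its probe set 5556817 read 10.89, 11.03, 11.25 and 10.36 in the wild type and 12.04, 12.28, 12.06 and 11.81 in Frasier, a difference of 1.17 ± 0.21 (SE). Probe set 5569584 read 9.48, 9.45, 9.41 and 9.20 against 8.49, 8.43, 8.47 and 7.98, a difference of −1.04 ± 0.14. Both pairs of groups were clear of each other by over 0.5, while the other 33 probe sets ran from −0.77 to 0.53 and 31 of all 35 were below 0. Slc4a4 is on the list of sodium pump and ion transporters together with Clcn7, a lysosomal chloride and proton exchanger (1.13, with genotypes 0.01 apart). RefSeq's GRCm38.p6 promoter table holds 2 starts of Slc4a4, shown because they are the annotated alternatives of this gene; which probe set belongs to which start was not determined. In these and the following sequences, read 5′ to 3′ from 250 bases before the start to 50 after it, capitals mark GGGCGG on either strand, the GC box bound by Sp1.
Slc4a4 start A (chr5:88887010-88887309, plus strand): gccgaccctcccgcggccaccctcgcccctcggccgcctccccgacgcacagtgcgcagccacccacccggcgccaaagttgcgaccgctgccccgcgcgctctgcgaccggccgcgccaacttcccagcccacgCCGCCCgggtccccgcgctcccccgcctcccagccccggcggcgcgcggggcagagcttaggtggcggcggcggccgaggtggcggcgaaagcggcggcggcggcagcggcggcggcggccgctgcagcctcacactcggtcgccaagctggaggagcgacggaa
Slc4a4 start B (chr5:89027716-89028015, plus strand): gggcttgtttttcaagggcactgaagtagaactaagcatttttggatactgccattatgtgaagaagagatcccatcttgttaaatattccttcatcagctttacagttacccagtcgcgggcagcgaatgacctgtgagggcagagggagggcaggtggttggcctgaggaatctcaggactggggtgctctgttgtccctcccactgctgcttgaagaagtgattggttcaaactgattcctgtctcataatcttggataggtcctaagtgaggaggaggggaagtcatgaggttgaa
The first of these windows had a GC content of 80% and holds 1 GC box, and the other had 48.3% and holds 0.

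The members of Gnas were among its dim probe sets. The gene encodes the alpha subunit of the stimulatory G protein, and its locus is imprinted and uses alternative first exons that join the same downstream exons. Of its 29 probe sets, 10 had a mean of 13 or more, and these differed by −0.14 to 0.28. Another 10 had a mean under 9 and a median difference of −0.42, from −1.04 to 0.12. All 3 members were among these dim ones and were chosen for their size, which partly sets that median and range. The 26 other probe sets, dim and bright, differed by −0.67 to 0.28. Probe set 4774524 read 9.60, 9.06, 9.05 and 8.90 in the wild type and 7.54, 8.23, 8.16 and 8.49 in Frasier. The values of 4367891 were 8.14, 7.97, 7.92 and 7.93 against 6.62, 7.55, 6.95 and 6.798, and those of 5390859 were 8.45, 8.04, 8.78 and 8.09 against 6.95, 7.94, 7.00 and 7.43. Frasier replicate 2 came within 0.09 of the wild type in the last of them. The differences were −1.04 ± 0.26, −1.01 ± 0.21 and −1.01 ± 0.29 (SE, n = 4 per genotype). With an array left out, these members met the rule in 6, 5 and 4 of 8 repeats, and none met it under both rescalings. The gene median was −0.22, 23 of all 29 probe sets were below 0, and the gene-level difference was −0.29. The promoter table lists 4 windows for Gnas, and 3 are shown, since the fourth overlaps the second of these.
Gnas start A (chr2:174284070-174284369, plus strand): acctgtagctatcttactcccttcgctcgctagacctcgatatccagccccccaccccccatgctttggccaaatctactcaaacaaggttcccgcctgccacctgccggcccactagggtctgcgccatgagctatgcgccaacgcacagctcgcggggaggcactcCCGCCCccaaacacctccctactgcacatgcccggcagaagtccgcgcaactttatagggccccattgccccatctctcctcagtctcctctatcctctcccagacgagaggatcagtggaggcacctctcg
Gnas start B (chr2:174327499-174327798, plus strand): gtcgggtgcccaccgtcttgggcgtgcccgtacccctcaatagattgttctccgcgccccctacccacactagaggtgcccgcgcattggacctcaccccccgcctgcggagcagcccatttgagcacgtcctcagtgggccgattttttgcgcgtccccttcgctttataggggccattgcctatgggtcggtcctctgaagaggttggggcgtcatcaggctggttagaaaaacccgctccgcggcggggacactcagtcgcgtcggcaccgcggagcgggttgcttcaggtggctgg
Gnas start C (chr2:174329756-174330055, plus strand): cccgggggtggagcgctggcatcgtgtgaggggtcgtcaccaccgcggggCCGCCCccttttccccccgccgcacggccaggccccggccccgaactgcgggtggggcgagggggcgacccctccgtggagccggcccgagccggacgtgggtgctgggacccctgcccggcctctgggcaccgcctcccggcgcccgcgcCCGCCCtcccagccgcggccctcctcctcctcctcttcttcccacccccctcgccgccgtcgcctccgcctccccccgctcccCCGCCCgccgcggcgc
Their GC content was 61%, 64.3% and 81.7%, and they hold 1, 0 and 3 GC boxes.

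Pde4b, a phosphodiesterase that degrades cAMP and is made in long and short forms from different starts, was chosen after its values were seen because its 2 members stood clear of the rest. One read 8.80, 8.25, 8.99 and 7.15 in the wild type and 10.24, 10.11, 9.59 and 9.64 in Frasier, and the other 7.02, 6.83, 7.28 and 6.27 against 8.88, 8.45, 8.33 and 7.91. They differed by 1.59 ± 0.44 and 1.54 ± 0.29 (SE), while the other 17 probe sets differed by −0.23 to 0.44. Wild-type replicate 4 was lowest in both, and without it the differences were 1.21 and 1.35. The 4 annotated starts are shown for comparison with those of Gnas and Slc4a4.
Pde4b start A (chr4:102421305-102421604, plus strand): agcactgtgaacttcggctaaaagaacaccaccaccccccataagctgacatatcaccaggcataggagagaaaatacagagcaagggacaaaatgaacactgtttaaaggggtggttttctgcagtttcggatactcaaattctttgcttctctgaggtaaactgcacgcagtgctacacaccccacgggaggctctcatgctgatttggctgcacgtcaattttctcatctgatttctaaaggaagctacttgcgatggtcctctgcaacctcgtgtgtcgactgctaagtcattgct
Pde4b start B (chr4:102569810-102570109, plus strand): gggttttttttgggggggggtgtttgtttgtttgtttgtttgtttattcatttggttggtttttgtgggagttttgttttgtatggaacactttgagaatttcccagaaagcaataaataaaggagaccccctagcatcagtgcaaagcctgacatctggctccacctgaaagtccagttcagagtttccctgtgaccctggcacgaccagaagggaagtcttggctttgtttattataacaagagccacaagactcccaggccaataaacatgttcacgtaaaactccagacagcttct
Pde4b start C (chr4:102587308-102587607, plus strand): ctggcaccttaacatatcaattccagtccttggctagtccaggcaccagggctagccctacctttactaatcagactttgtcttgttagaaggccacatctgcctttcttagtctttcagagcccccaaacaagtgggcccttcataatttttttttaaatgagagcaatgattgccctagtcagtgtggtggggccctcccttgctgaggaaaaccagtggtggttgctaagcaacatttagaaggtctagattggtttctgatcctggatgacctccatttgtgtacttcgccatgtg
Pde4b start D (chr4:102589593-102589892, plus strand): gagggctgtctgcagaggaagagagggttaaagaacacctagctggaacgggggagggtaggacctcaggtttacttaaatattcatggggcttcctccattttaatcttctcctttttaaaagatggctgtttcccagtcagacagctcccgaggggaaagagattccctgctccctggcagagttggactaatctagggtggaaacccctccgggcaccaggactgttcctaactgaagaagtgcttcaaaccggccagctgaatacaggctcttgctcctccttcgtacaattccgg
These windows had a GC content of 43.3% to 51.3% and no GC box.

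**Figure D4:**
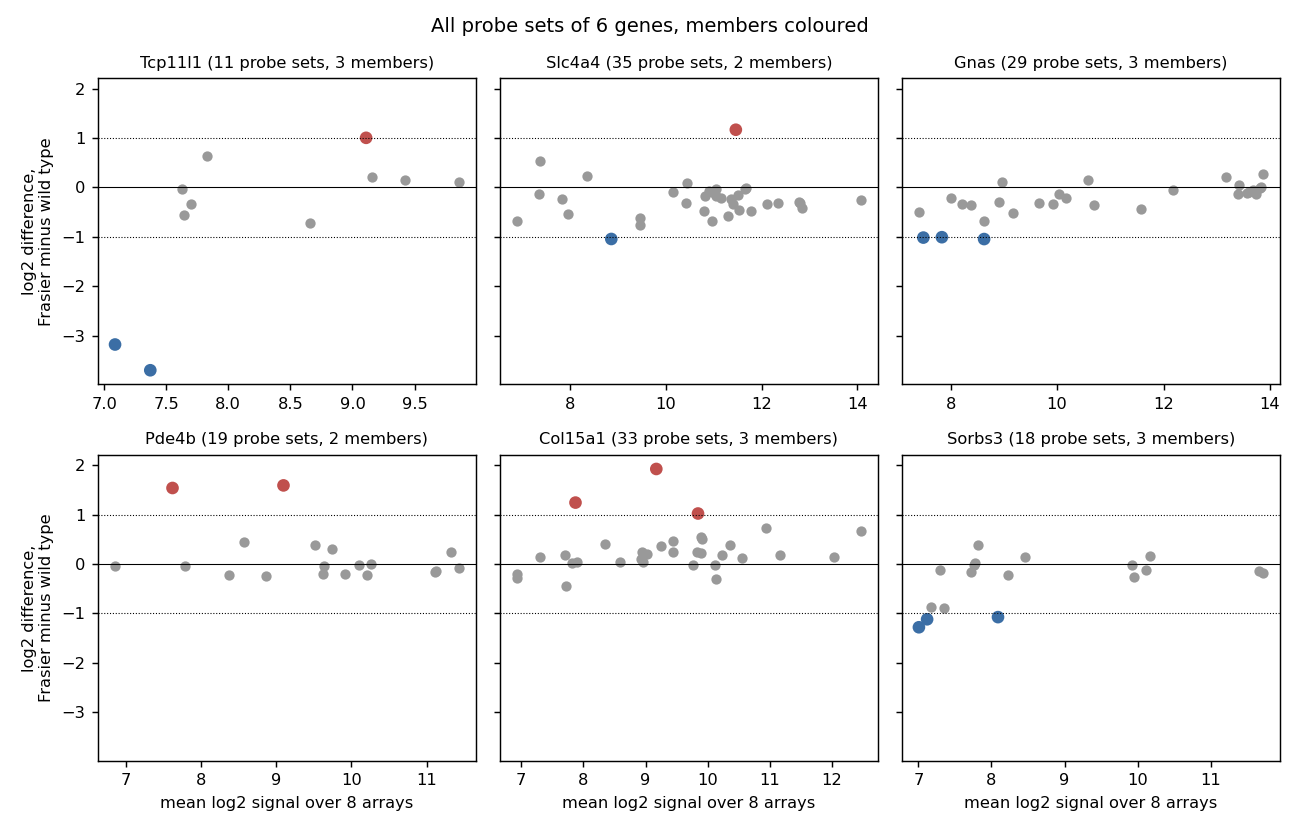
Log2 difference against mean log2 signal for all probe sets of Tcp11l1, Slc4a4, Gnas, Pde4b, Col15a1 and Sorbs3 that had a mean of 6.8 or more. Members are red (higher in Frasier) or blue (lower), other probe sets grey, and dotted lines mark 1 and −1; the Gnas and Sorbs3 members lie at the dim end of their genes and the Pde4b members stand clear of the remaining 17.

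Several starts were annotated for 70 of the 237 member genes found in the promoter table (29.5%) and for 1210 of 5246 genes of steady median (23.1%). Member genes also had more probe sets, with a median of 17 against 12, and the part of that in the difference was not tested. GC boxes were present in 63.7% of the promoters of member genes, 65.6% of those of genes of steady median and 35.7% of all promoters. The motif GCGTGGGNG, of the type bound by the zinc fingers of WT1 and EGR1, was searched on both strands and can overlap a GC box where N is C; it was present in 3.51% of promoters of member genes, 3.32% of those of genes of steady median and 1.90% of all. It was in none of the windows shown.

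Of 27 genes of steady median on the matrix list, 3 had members (11.1%, beside 4.7% of all such genes). These 27 genes had more probe sets per gene, 1163 in all, beside 95843 in 6386 genes. The part of that in the share was not tested, so it is no result about the list. Their 6 members were higher, as 86.4% of all members were, and the median difference over the list's 1163 probe sets was 0.01, beside 0.07 over all 95843. Col15a1, which encodes the basement membrane collagen XV, had 3 members among 33 probe sets. The largest read 8.76, 7.94, 7.88 and 8.27 in the wild type and 9.79, 10.21, 10.31 and 10.24 in Frasier. Here wild-type replicate 4 did not stand apart, the genotypes were 1.03 apart, and the difference was 1.92 ± 0.23 (SE), or 1.95 without that array. The other 2 Col15a1 members differed by 1.24 and 1.02. Col3a1, a fibrillar collagen of stroma, differed by 1.16 at 1 of 39 probe sets, and Frem1, a matrix protein of embryonic basement membranes, by 1.15 and 1.08 at 2 of 52.

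Col2a1, the fibrillar collagen of cartilage, was outside the list and had 3 higher members of 17 probe sets. Probe set 5144656 read 8.68, 8.23, 8.60 and 8.46 in the wild type and 9.96, 9.65, 10.03 and 9.71 in Frasier, a difference of 1.35 ± 0.13 with the genotypes 0.98 apart. The other 2 differed by 1.66 ± 0.26 and 1.51 ± 0.27. Its gene median was 0.23, 11 of its other 14 probe sets were above 0, and its gene-level difference was 0.43. Steap2, a metalloreductase of endosomes, likewise had 3, differing by 1.32, 1.29 and 1.02. The Steap2 probe set 5266960 was the tightest of these, with 7.71, 7.67, 7.81 and 7.56 in the wild type and 8.59, 9.003, 8.54 and 8.69 in Frasier.

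The list of splicing and RNA-binding factors had 4 member genes of 65 of steady median, or 6.15%. That is near the 4.7% of all such genes and no result about the list. The list is not complete, and Casc3, given under other observations, was a member gene outside it. Sf3b2 and Sf3b3 are subunits of the SF3B complex, which helps the U2 particle bind the branch point of an intron. The Sf3b2 member read 9.11, 9.33, 9.24 and 9.40 in the wild type and 7.54, 7.21, 7.67 and 8.24 in Frasier, a difference of −1.60 ± 0.22 (SE). The Sf3b3 member went the other way, from 6.61, 6.57, 7.05 and 6.01 to 8.01, 7.67, 8.24 and 7.70, a difference of 1.35 ± 0.25. Each was 1 probe set, of 16 and 29, and the gene medians were 0.08 and 0.15. Clk1, a kinase of splicing factors whose own transcript is known to keep introns, had 2 higher members (1.15 and 1.05). Wild-type replicate 4 was the lowest array in both, and without it they differed by 0.86 and 0.37. Prpf31, a protein of the U4/U6 particle, differed by 1.03, with a gene median of 0.29. It met the rule in 2 of 8 repeats with an array left out, and not under both rescalings. Over the 1217 probe sets of this list the median difference was 0.07, equal to that over all.

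The list of actin cytoskeleton and adhesion had 3 member genes of 72 (4.17%, near the 4.7% of all), with 5 members, none lower. Dst, a large linker protein of the cytoskeleton with tissue-specific isoforms, had 3 higher members among 113 probe sets. Its probe set 4904121 read 9.40, 9.38, 9.64 and 10.87 in the wild type and 11.33, 11.31, 11.14 and 11.13 in Frasier, a difference of 1.41 ± 0.36. Wild-type replicate 4 was the highest wild-type array in all 3 Dst members, and without it this difference was 1.76. Daam1, a formin that nucleates actin filaments, differed by 1.11 and Myh10, a nonmuscle myosin heavy chain, by 1.02. They met the rule in 2 and 5 of 8 repeats with an array left out, and neither under both rescalings. Of 68 genes on the list of well known alternative exons, 1 had a member (1.47%), the kinase Camk2d (1.499 ± 0.38, 1.27 without wild-type replicate 4).

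Lists of kidney cell types held few members. On the mesangium list 1 of 8 genes of steady median had one, the receptor Pdgfrb, at 8.32, 8.03, 8.12 and 8.47 in the wild type and 7.12, 7.27, 7.17 and 7.11 in Frasier, a difference of −1.06 ± 0.11 (SE). Its SE was the smallest of all 45 lower members. The 3 mesangial markers, Pdgfrb among them, were also lower in Frasier at the gene level (9.30 to 9.43 and 8.92 to 9.13), and their part in this difference was not tested. No member was found among 18 podocyte genes of steady median, 13 of endothelium, 9 of proximal tubule, 9 of loop and collecting duct, 8 of nephron progenitors, 6 of leukocytes and blood, or 5 of antigen presentation. Beside the 4.7% of genes that held a member, a count of 0 in lists this short is not a result about them. Wt1 itself had 17 probe sets, a median of −0.03 and no member; its largest difference was −0.51.

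The members were spread over all autosomes and the X chromosome. Chromosome 2, which carries Wt1, held 36 of the 331 (10.9%), with 7.98% of the probe sets of genes of steady median, and 9 of the 45 lower members. Of these 9, 3 were of Gnas and 2 of Tcp11l1, so they are not 9 separate genes. Gnas lay 212 places from Wt1 in the order of genes of steady median. The share of a chromosome's probe sets that were members ran from 0.191% on chromosome 17 to 0.631% on chromosome 13, with 0.471% on chromosome 2. Of the 20 genes of steady median nearest to Wt1, 10 on either side, 3 had members (15%, beside 4.7% of all such genes), and each held a lower one, as 0.579% of all did. The gene Tcp11l1 was known to lead the lower members when this neighbourhood was chosen, so these shares are a description. These were Tcp11l1, Mpped2, a metallophosphoesterase (−1.03 ± 0.12), and Cat, the peroxisomal enzyme catalase. The Mpped2 member met the rule in 5 of 8 repeats with an array left out, and not under both rescalings. The Cat member read 12.20, 12.33, 12.35 and 12.49 in the wild type and 11.51, 11.53, 10.74 and 11.05 in Frasier, a difference of −1.13 ± 0.20 (SE), while its gene median was 0.05.

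Of the 100 genes within 50 of Wt1, 12 had members (12%), and the other 9 held higher members alone. They were Madd, Ckap5, Ttc17, Eif2ak4, Vps18, Ino80, Mga, Haus2 and Ubr1, with differences of 1.01 to 1.43. Madd, Ckap5 and Ttc17 met the rule in 5, 4 and 5 of 8 repeats with an array left out, and the others in 7 or 8. Vps18, a subunit of the complexes that tether endosomes and lysosomes, differed by 1.13 at 1 of only 6 probe sets, and the gene-level table holds that same probe set for it. Ubr1, a ubiquitin ligase of the N-degron pathway, had 2 members, at 1.43 and 1.26, and its wild-type values had SDs of 0.80 and 0.89 against 0.22 and 0.086 in Frasier. Mga, a transcription factor that pairs with Max, was the brightest of the 9, with 10.59, 10.91, 11.33 and 10.48 in the wild type and 11.90, 12.03, 11.88 and 11.94 in Frasier. Eif2ak4, the amino acid sensing kinase Gcn2, was 1 of those in which wild-type replicate 4 was the highest wild-type array.

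**Figure D5:**
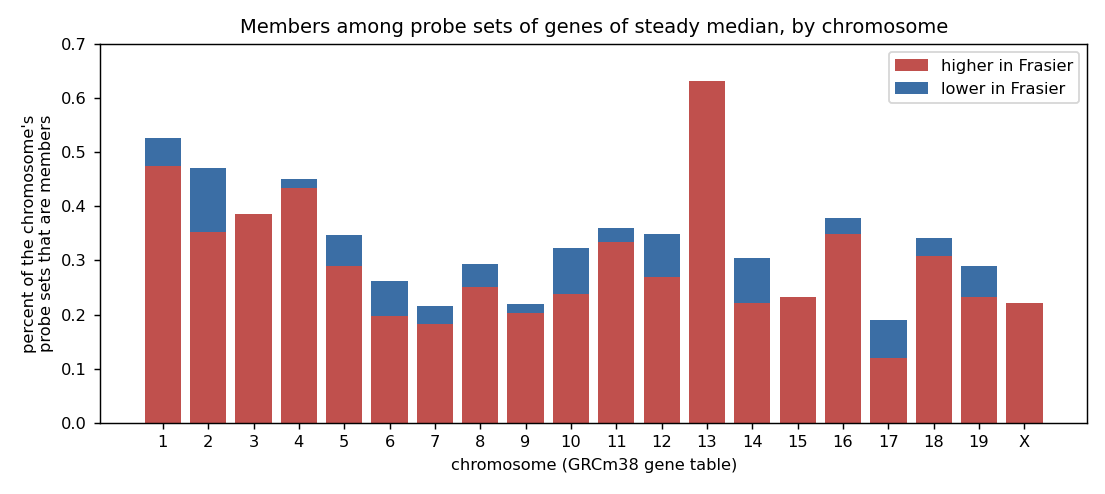
Percent of each chromosome's probe sets, among genes of steady median, that are members, with higher members in red and lower members in blue (chromosomes from the GRCm38 gene table; bars start at 0). Chromosome 13 has the highest bar (0.631%) and no lower member, and chromosome 2 has 27 higher and 9 lower members.

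In 151 of the 264 genes whose largest member was higher (57.2%), another probe set was higher by 0.5 or more without overlap, and in 13 (4.92%) another was lower by as much. For the 36 genes whose largest member was lower, another was lower in 16 (44.4%) and higher in 4 (11.1%). Among the 6086 genes of steady median without members, 27.6% had a probe set higher by that much and 8.97% one that was lower; member genes have more probe sets, and the part of that was not tested. The gene median had the sign of the member in 268 of 286 higher and 38 of 45 lower members, where 69.7% of all genes of steady median had a median above 0. Members were dimmer than other probe sets: their mean over 8 arrays had a median of 8.21 in the higher and 7.88 in the lower members, against 9.33 for all probe sets of genes of steady median. Member genes also held 1055 probe sets too dim to count. Of these, 15 in 15 genes differed by 1 or more in size without overlap. At the gene level, 288 of the 300 genes had a transcript cluster, but 68.1% of all clusters in that table equalled a single exon-level probe set on every array. This held for 6 of the 288, among them Vps18, whose cluster is its own member (1.13), Egln3 and Clock. The other 282 ran from −0.59 to 0.64, and 250 of them differed by 0.3 or less. Limma called 1 of the 288, Itpkb (−0.59), where it called 0.827% of all clusters; both tables come from the same arrays, so nothing is read from that count.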

How the data were processed

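The deposited exon-level and gene-level tables hold log2 signals that the authors made with RMA in Partek against mm9, per the submitters' processing notes, whose versions were not given in the sources used here. RMA corrects background, makes the arrays' distributions alike and summarises probes, so differences are relative to the whole array. Values ran from 3.57 to 14.9 over 8 arrays, whose number limits the precision. The labels do not say that the embryos came from separate litters, so the arrays of a genotype may not be fully independent. The sample titles do not say whether each RNA came from a separate embryo, so the spread between arrays may be partly technical.

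Of 375483 exon-level probe sets, 192914 had 1 symbol in the platform annotation, 1399 several and 181170 none, and 25401 symbols were updated through RefSeq's GRCm38 gene table. Members and lists were chosen with earlier results of these data known. Mean, SD, SE and differences were computed in Python 3.11.15 with pandas 2.3.3. Limma 3.58.1 in R 4.3.3 with Benjamini-Hochberg adjustment at 0.05 gave the background counts, over all rows of a table: 10035 exon-level probe sets (2.67%) and 774 gene-level clusters (0.827%). Tested on simulated data, it recovered 16%, 72% and 92% of changes of 1, 2 and 3 among 375483 exon-level rows, and 44%, 98% and 98% among 93623 gene-level rows. The simulation planted few changes in noise drawn independently for each array, so these percentages are not the recovery in the real tables.

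The genes named were the 12 largest differences in each direction (1 per gene), genes with members both ways, the 8 genes with most members in 1 direction, up to 4 member genes per list, Wt1, the 3 probe sets on each side of the threshold, up to 6 members at the floor in 1 genotype (none qualified) and the 12 member genes nearest Wt1. Alternatives varied each threshold, the normalization, the symbols and the arrays.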

Additional observations from a re-analysis of the deposited data

Results flagged for a closer look

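Among the named members, 134 groups of 4 arrays were checked for a single array far from the other 3, and 5 were found; chance alone gives about 1 in 20. In Tcp11l1 probe set 5193872, wild-type replicate 1 read 8.95 and the other wild-type arrays 9.29 to 9.33, all far above the Frasier arrays. In Slc4a4 probe set 5569584, Frasier replicate 4 read 7.98 and the others 8.43 to 8.49. Frasier replicate 1 stood apart in both Col15a1 probe set 4756696, at 8.09 against 8.61 to 8.68, and Dst probe set 5489574, at 9.95 against 9.59 to 9.62. In Madd probe set 5027656, wild-type replicate 3 read 7.88 and the others 6.82 to 6.99, which put it nearest to Frasier. None of the 5 was wild-type replicate 4, the array lowest in most higher members. That check reads a single group at a time and covered 67 probe sets, so it does not clear this array. It left out Clk1 probe set 5002761, which read 9.35, 9.35, 9.54 and 6.70 on wild-type replicates 1 to 4.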

How the results depend on the processing

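The 331 probe sets in 300 genes became 933 in 791 with a difference of 0.8 or more, 33 in 30 with 1.5 or more, 184 in 174 with a mean of 8 or more, 130 in 115 with a gene median within 0.15, 579 in 502 with overlap allowed and 206 in 187 relative to the gene median on each array. The share that was lower, 13.6%, was 31.6% relative to the gene median, 9.73% where the gene-level clusters also had to be within 0.3, and 32.8% without the 2 arrays whose sample letter occurs once. Leaving out 1 array at a time gave 272 to 818 probe sets, 228 to 709 genes, 7.09% to 33.8% lower and 9.29% to 15.4% on chromosome 2. Limma's 10035 exon-level calls became 16875 with the trend and robust options and 3513 to 9913 with 1 array left out; its 774 gene-level calls became 1408 over rows with 1 symbol and 268 to 758 with 1 array left out. Replicate numbers 1 to 4 occur in both genotypes, but deviations from the group means correlated at −0.00, 0.12, 0.24 and 0.20 within a number, so the numbers were not taken as pairs. With the number as a replicate block limma called 7859 probe sets and 185 clusters. Of 737 alternative values of the named probe sets, 724 moved by less than the spread between arrays, 13 moved by more and 0 changed direction. Most of these values came from leaving out 1 array, which cannot move a mean by that spread. Nor can it reverse a probe set chosen for no overlap, so nothing is read from these counts.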

Other observations

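A few more members are given here as values, chosen after their values were seen because the genotypes lay well apart. Casc3, a core protein of the complex that splicing leaves at exon junctions, had a wild-type mean of 6.50 ± 0.24 and a Frasier mean of 7.95 ± 0.21 (SD, n = 4 each) at 1 of its 11 probe sets, with the genotypes 0.96 apart. Fam20b, a kinase that phosphorylates xylose in the linker of proteoglycan chains, stood at 8.42 ± 0.33 and 9.77 ± 0.15 at 1 of 20, with wild-type replicate 4 the highest wild-type array. Nmd3, an export adaptor of the large ribosomal subunit, stood at 6.32 ± 0.19 and 7.70 ± 0.31 at 1 of 15.

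On the lower side, Dock8, an activator of small GTPases in leukocytes, stood at 8.05 ± 0.27 in the wild type and 6.89 ± 0.31 in Frasier (SD, n = 4 each). Of its other probe sets, 9 were lower by 0.5 or more without overlap and 0 were higher by as much. Its gene-level difference was −0.32, with 7.56 to 7.72 on the wild-type arrays and 7.12 to 7.40 on the Frasier arrays. The lower signal of Dock8 was therefore not confined to the member. The 3 leukocyte markers at the gene level had a mean of 6.53 to 6.70 on the wild-type arrays and 6.20 to 6.33 on the Frasier arrays, and their part in the Dock8 difference was not tested. Sgk1, a kinase that raises sodium transport in the tubule, had 2 lower members among 16 probe sets, at −1.22 ± 0.25 and −1.10 ± 0.28 (SE), while its gene median was −0.11.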
